A study of Mus musculus with 3 samples.

Results

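Expression of 10 genes of zinc and iron handling, of 23183 genes with a value, was compared between lungs of control mice, mice given particulate matter, and mice given the same particles and an allergen. The genes were chosen by symbol: the metallothioneins Mt1 and Mt2, the zinc transporters Slc30a1 and Slc39a14, the ferritin chains Fth1 and Ftl1, the iron transporters Slc40a1, Tfrc and Slc11a1, and the haem oxygenase Hmox1. The data were 3 RNA sequencing libraries made from homogenised lung of female BALB/c mice, 1 for each group, called control lung, PM10 lung and OVA+PM10 lung below. The mice were 10 weeks old by one label and 5 to 6 weeks old at the start by another. The control group is labelled control, with no vehicle or sham treatment named. The PM10 group received PM10, a certified fine-dust reference material (ERMCZ-120), into the nose 4 times over 2 weeks, at 100 or 200 µg in 20 µL of saline; which of those doses was sequenced is not stated. The OVA+PM10 group received those particles and ovalbumin (OVA, an egg-white protein used to model allergic asthma), as injections of 20 µg with aluminium hydroxide into the peritoneum, the last on day 14, and as drops of 30 µL at 1 mg/mL into the nose on days 21, 22 and 23, and was killed 2 days later. The labels give 5 mice per group and do not say whether a library held RNA of 1 mouse or of several. A group given OVA without particles was not analysed here, so OVA and particles cannot be told apart in OVA+PM10 lung.

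Metallothioneins are small cysteine-rich proteins that bind zinc and copper, and their genes are switched on by the zinc-sensing factor MTF1 through short metal response elements, as well as by glucocorticoids and inflammatory signals. Cells keep iron in ferritin, a shell built of heavy chains (Fth1, which oxidise iron) and light chains (Ftl1), take it up through the transferrin receptor (Tfrc), and release it through ferroportin (Slc40a1). Iron regulatory proteins bind hairpins called iron-responsive elements, blocking translation of ferritin and ferroportin mRNA and stabilising Tfrc mRNA when iron is short, so that mRNA levels report only part of ferritin control. In the lung, alveolar macrophages are the main cells that take up inhaled particles and store their iron.

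The promoters of Mt2 and Mt1 are shown because the genes are neighbours on chromosome 8 and their deposited values differed from control lung in opposite directions. Each line gives the 250 bases before the RefSeq start of a gene, which lies upstream of the GENCODE start used for the gene positions for Mt2 and downstream of it for Mt1, and a short site of Mt1 just after its start follows. Capitals mark the metal response element core (TGCACNC or TGCGCNC, either strand). The sequences are from RefSeq, build GRCm38.p6, the assembly that mm10 names; it is a C57BL/6J genome and not that of the BALB/c mice studied.

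Mt2 promoter, chr8:94172368-94172617, strand +: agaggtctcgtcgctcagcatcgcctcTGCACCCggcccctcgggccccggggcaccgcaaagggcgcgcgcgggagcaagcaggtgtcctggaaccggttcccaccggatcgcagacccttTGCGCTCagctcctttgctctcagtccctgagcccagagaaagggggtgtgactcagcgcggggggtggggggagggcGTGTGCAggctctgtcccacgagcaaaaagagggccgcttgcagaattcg
Mt1 promoter, chr8:94178839-94179088, strand +: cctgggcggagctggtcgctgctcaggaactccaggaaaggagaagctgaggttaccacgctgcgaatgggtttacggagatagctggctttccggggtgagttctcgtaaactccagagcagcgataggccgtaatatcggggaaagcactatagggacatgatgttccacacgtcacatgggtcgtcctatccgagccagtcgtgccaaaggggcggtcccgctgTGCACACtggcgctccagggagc
Mt1 site after the start, chr8:94179091-94179115, strand +: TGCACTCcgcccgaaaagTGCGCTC

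Over the 250 bases before and 50 bases after the start, the Mt2 window held 4 cores and the Mt1 window 3. Cores further downstream were not sought, and whether transcription begins at these annotated starts was not tested. The counts therefore do not rank the genes by their number of elements. Of 32851 promoter windows of that length in the table, 25.7% held at least 1 core, 1.97% at least 3 and 0.517% at least 4. Windows were found for 7 of the 10 genes. The Slc30a1 window held 2 cores and 1 of the 2 Tfrc windows held 2 that overlap, while the windows of Fth1, Ftl1 and Slc11a1 held none. A match of letters is a description and no evidence of binding.

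The iron-responsive elements are shown because members of the set are textbook carriers of them; a match is a description of letters and not of binding. A hairpin was sought as an unpaired C, a stem of 5 base pairs (G to T pairs allowed) and the loop of 6 bases CAGTGN, in GENCODE M21 transcripts (GRCm38). Capitals mark the loop. The matches in Fth1, Ftl1 and Slc40a1 lie in the 5′ UTR and the 4 in Tfrc in the 3′ UTR. Elements that depart from this pattern were not sought, so the 4 need not be all that Tfrc carries.

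Fth1, chr19:9982732-9982761, strand +: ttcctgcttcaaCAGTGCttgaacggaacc
Ftl1, chr7:45459778-45459807, strand -: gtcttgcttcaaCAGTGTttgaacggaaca
Slc40a1, chr1:45925464-45925493, strand -: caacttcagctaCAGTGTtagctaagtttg
Tfrc, chr16:32631219-32631248, strand +: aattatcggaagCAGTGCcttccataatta
Tfrc, chr16:32631598-32631627, strand +: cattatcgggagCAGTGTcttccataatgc
Tfrc, chr16:32631663-32631692, strand +: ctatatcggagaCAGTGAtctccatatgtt
Tfrc, chr16:32631710-32631739, strand +: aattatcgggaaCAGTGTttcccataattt

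The Fth1 and Ftl1 elements share 26 of 30 bases, and the Ftl1 and Slc40a1 elements 13. The pattern was found in 21 of 20574 5′ UTRs (0.102%) and in 111 of 20733 3′ UTRs (0.535%).

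Levels are given as FPKM, that is sequenced fragments scaled to transcript length in kilobases and to 1000000 mapped, and this unit was read from the values themselves. Lung markers were high in every library, with all 10 epithelial markers at 1 FPKM or more. Control lung also held genes of other tissues, namely all 10 squamous epithelium markers (4797 FPKM summed, against 0.965 and 1.78 FPKM in the PM10 and OVA+PM10 libraries) and all 7 skeletal muscle markers (2585 against 10.1 and 28.4 FPKM). Steps between the lowest values put the depth near 19.7 (control), 13.0 (PM10) and 14.9 (OVA+PM10) times 1000000 reads, and on that scale the 10 genes rested on about 116 to 148357 reads each. Summed FPKM was 546315, 1293180 and 855739, and scaling to an equal sum moves the median gene's log2 ratio to -1.02 (PM10 against control), -0.57 (OVA+PM10 against control) and 0.48 (OVA+PM10 against PM10). Short transcripts had higher values in PM10 lung: the median log2 ratio to control was 1.18 in the tenth of genes with the shortest transcripts (121 to 1124 bases) and -0.79 in the tenth with the longest (6277 bases or more). The metallothionein and ferritin transcripts are short, so values with this trend removed are given beside theirs.

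All 10 genes had at least 1 FPKM in every library, so none depended on a filter. A gene is called higher or lower below when its log2 ratio of FPKM + 1 is at least 1 in size, that is 2-fold. Directions are relative to equal values on the scale in use, the deposited one unless stated. On the deposited scale the median gene's ratio was 0.02, -0.0017 and -0.03 in the 3 comparisons. Of the 10 genes, 3 passed 2-fold as higher in PM10 lung than in control lung (Fth1, Ftl1 and Slc11a1) and 0 were lower, beside 13.6% and 13.9% of 13693 genes. In OVA+PM10 lung, 2 were higher (Ftl1 and Slc11a1) and 1 was lower (Slc30a1), beside 9.95% and 8.68% of 13877 genes. Against PM10 lung, OVA+PM10 lung had 0 genes higher and 1 lower (Fth1), beside 11.8% and 9% of 13556 genes. The median log2 ratio of the 10 genes was 0.35, 0.46 and -0.24. With the trend over transcript length removed, the counts higher and lower were 2 and 1 for PM10 against control (beside 6.57% and 11.2% of all genes), 1 and 1 for OVA+PM10 against control (7.33% and 8.36%), and 1 and 0 for OVA+PM10 against PM10 (11.9% and 6.49%). With equal summed FPKM they were 0 and 3 (1.76% and 51.2%), 0 and 1 (4.3% and 24.1%), and 0 and 0 (24% and 2.4%). With 1 library per group no test is possible, each value compares libraries and not conditions, and the first and second comparison share control lung.

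**Figure D1:**
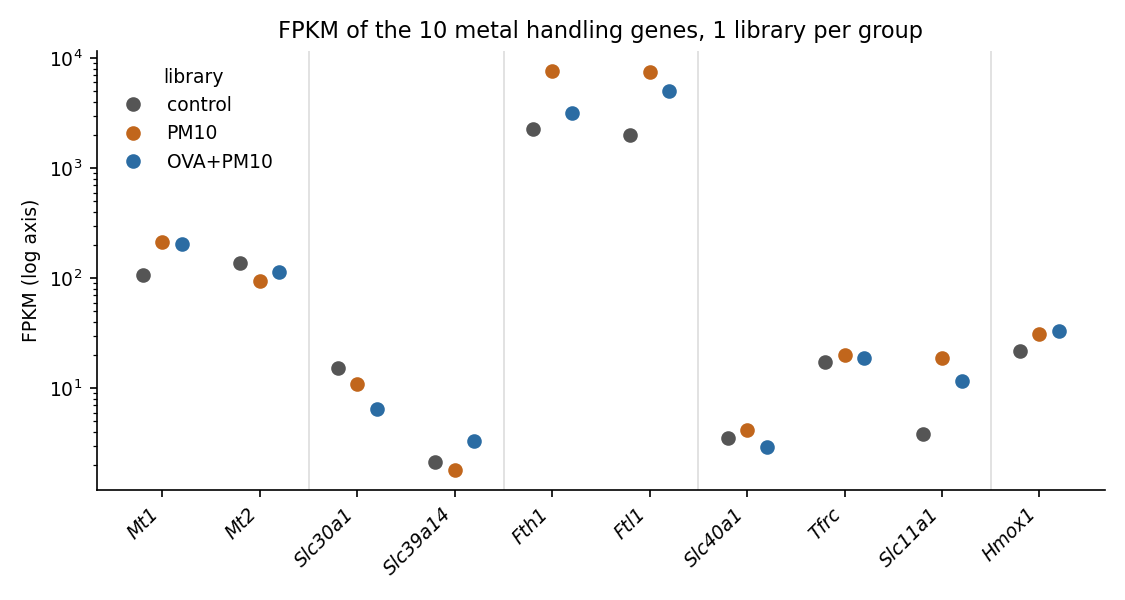
FPKM (log axis) of the 10 genes for control, PM10 and OVA+PM10, 1 point per library, with vertical lines between metallothioneins, zinc transporters, ferritin chains, iron transporters and Hmox1. Fth1 and Ftl1 lie at 2007 FPKM or more in every library, and Slc39a14 and Slc40a1 below 5 FPKM.

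As deposited, Mt1 was above and Mt2 below control lung in both exposed libraries, each within 2-fold, while Mt1 in PM10 lung was also below control with the length trend removed or with equal summed FPKM. It was above control with the trend over the longest transcript removed (0.02) and with sums equalised over the remaining genes (0.25). Mt1 (chromosome 8, 94179082 to 94180327, 3 exons) had 108 FPKM in control lung, 215 FPKM in PM10 lung and 206 FPKM in OVA+PM10 lung. Its log2 ratio to control was 0.99 with PM10 and 0.93 with OVA+PM10, in both cases just under 2-fold. Mt2 (chromosome 8, 94172664 to 94173568, 3 exons) had 137, 94.5 and 113 FPKM, with log2 ratios of -0.53 and -0.28. Control lung was thus the lowest of the 3 for Mt1 and the highest for Mt2, although the genes lie 5513 bases apart and encode proteins with the same metal-binding role.

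Because both genes were measured in the same library, their ratio does not depend on how libraries are scaled. Mt1 stood at 0.785 times Mt2 in control lung, 2.27 times in PM10 lung and 1.82 times in OVA+PM10 lung. The transcripts have nearly the same length (549 and 511 bases). The sum of both was 245, 309 and 318 FPKM as deposited. With the length trend removed, the log2 ratio of Mt1 was -0.41 with PM10 and 0.08 with OVA+PM10, and that of Mt2 was -1.96 and -1.16, which puts Mt2 past 2-fold lower in both. With equal summed FPKM Mt1 also had the opposite sign in PM10 lung (-0.25). The coding sequences are 79.2% identical over 183 bases, with a longest shared run of 20 bases between the transcripts, and how the authors counted reads that match several genes is not stated here.

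Of the other metallothioneins, Mt4 separated the libraries further and Mt3 did not. Mt4, the metallothionein of stratified squamous epithelium, had 585 FPKM in control lung and was listed at 0 in both others. In control lung it was therefore the most abundant metallothionein. All 10 squamous epithelium markers were past 2-fold lower than control in both exposed libraries: Krt13 had 2574 FPKM in control lung and 0.107 FPKM or less in the others, and 7 of the 10, among them Krt5, Krt14 and Krt6a, were listed at 0 in PM10 lung. Mt1 and Mt2 are made by many cell types, squamous epithelium included. How much of their control level came with this tissue was not tested. Mt3, the brain form, was low (2.15, 2.27 and 2.93 FPKM), as was the sensor gene Mtf1 (3.10, 2.50 and 3.24 FPKM).

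**Figure D2:**
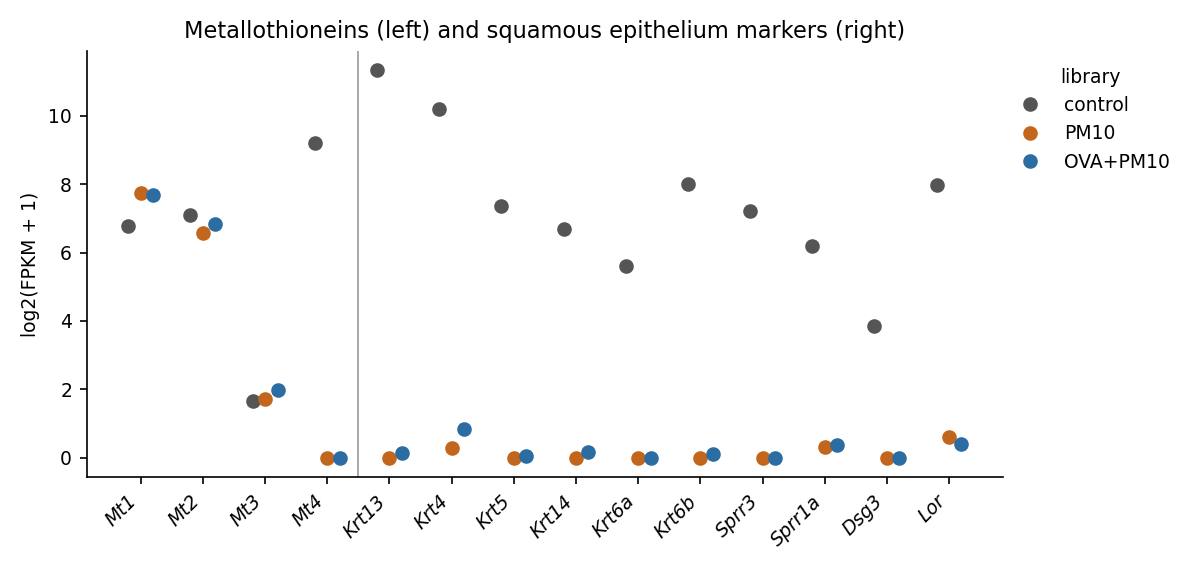
Log2(FPKM + 1) of 4 metallothioneins (left of the line) and 10 squamous epithelium markers (right) in the 3 libraries, 1 point per library. Mt4 and the 10 markers are high in control lung and at or near 0 in both others, whereas Mt1 and Mt2 are above 90 FPKM in all 3.

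The zinc exporter Slc30a1 (ZnT1, the plasma membrane pump that removes zinc from the cytosol and itself a target of MTF1) was lowest in OVA+PM10 lung. The gene (chromosome 1, 191906767 to 191913247, 2 exons) had 15.4 FPKM in control lung, 10.8 FPKM in PM10 lung and 6.48 FPKM in OVA+PM10 lung. The log2 ratio of OVA+PM10 to control was -1.13, or -0.87 with the length trend removed, and that of PM10 to control was -0.47, or 0.02 with the trend removed. The order of libraries as deposited was thus not that of Mt1 or Mt2, both also MTF1 targets. Like Slc30a1, Mt2 was highest in control lung (137, 94.5 and 113 FPKM), whereas Mt1 was lowest there. The second zinc transporter of the set, Slc39a14 (ZIP14, which imports zinc, iron and manganese and is induced by interleukin-6 in liver), was low throughout. It lies on chromosome 14 (70303469 to 70351425, 10 exons) and had 2.16, 1.81 and 3.31 FPKM for control, PM10 and OVA+PM10. Its log2 ratios were -0.17, 0.45 and, between the exposed libraries, 0.62, all within 2-fold.

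Most other zinc transporters stayed within 2-fold. Of 10 exporter genes of the SLC30 family, 6 reached 1 FPKM, and apart from Slc30a1 none passed 2-fold in any comparison. Slc30a4, which loads zinc into vesicles, had 7.39, 4.09 and 4.71 FPKM, and Slc30a6, a Golgi transporter, 5.00, 7.92 and 8.62 FPKM. Of 14 importer genes of the SLC39 family, 12 reached 1 FPKM, and 0 were called in PM10 lung. In OVA+PM10 lung, 2 were higher than control, beside 9.95% of all genes. They were Slc39a4, the main intestinal zinc importer, at 53.0 against 18.0 FPKM (log2 ratio 1.51), and Slc39a11 at 19.2 against 6.50 FPKM (1.43). Against PM10 lung, 3 were higher (Slc39a4, Slc39a9 and Slc39a11) and 1 was lower (Slc39a6, 5.44 against 15.6 FPKM), beside 11.8% and 9% of all genes. Slc39a8 (ZIP8, which carries zinc and manganese and is abundant in lung) had 75.4, 61.8 and 42.3 FPKM, the highest importer values in the control and PM10 libraries, while Slc39a4 was higher in OVA+PM10 lung. It had the same order of libraries as Slc30a1.

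The ferritin chains were the most abundant of the genes. Fth1, the heavy chain (chromosome 19, 9980598 to 9985098), had 2287 FPKM in control lung, 7659 FPKM in PM10 lung and 3173 FPKM in OVA+PM10 lung. Ftl1, the light chain (chromosome 7, 45457944 to 45459884), had 2007, 7529 and 5034 FPKM. In PM10 lung both chains were therefore higher by a similar factor, 3.35 for Fth1 and 3.75 for Ftl1 (log2 ratios 1.74 and 1.91). In OVA+PM10 lung they parted: Ftl1 was 2.51 times its control value (1.33) and Fth1 1.39 times (0.47).

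Both chains together made up 0.786% of the summed FPKM of control lung, 1.17% of that of PM10 lung and 0.959% of that of OVA+PM10 lung. With the length trend removed, the log2 ratio of PM10 to control was 1.19 for Fth1 and 0.82 for Ftl1, so that Ftl1 no longer passed 2-fold. That of OVA+PM10 to control was 0.12 and 0.76. The lengths used were 1494 bases for Fth1 and 968 for Ftl1, at which the PM10 trend was 0.55 and 1.09. The iron-responsive element begins near base 658 of that Fth1 transcript and base 78 of that of Ftl1. Whether a shorter Fth1 transcript prevailed was not tested, so this difference between the chains depends on the transcript chosen. With equal summed FPKM the PM10 ratios were 0.50 and 0.66, and Fth1 had the opposite sign in OVA+PM10 lung (-0.18). Among all genes of a library ranked by FPKM, Fth1 was at rank 17 in the control, 35 in the PM10 and 43 in OVA+PM10 lung, and Ftl1 at 24, 36 and 22, so neither chain ranked higher in PM10 lung than in control lung. Ribosomal protein genes made up 17.2%, 38.9% and 28.1% of the summed FPKM of the 3 libraries.

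The ratio of light to heavy chain within a library, which carries no library scaling, was 0.877 in control lung, 0.983 in PM10 lung and 1.59 in OVA+PM10 lung. OVA+PM10 lung thus had more light chain transcript relative to heavy chain than either other library. The ratio still carries the length trend, as the transcripts differ in length. With that trend removed, the log2 ratio of PM10 to control was lower for Ftl1 (0.82) than for Fth1 (1.19), opposite to the small rise as deposited. That of OVA+PM10 to control stayed higher for Ftl1 (0.76) than for Fth1 (0.12). Between the exposed libraries Fth1 was 0.414 times as high with OVA+PM10 (log2 ratio -1.27, or -0.998 with the length trend removed) and Ftl1 0.669 times (-0.58, or -0.08). GENCODE M21 names 5 genes as ferritin pseudogenes, 2 of the heavy and 3 of the light chain. None of the 5 is listed in the files, and reads shared with them make the absolute levels uncertain.

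**Figure D3:**
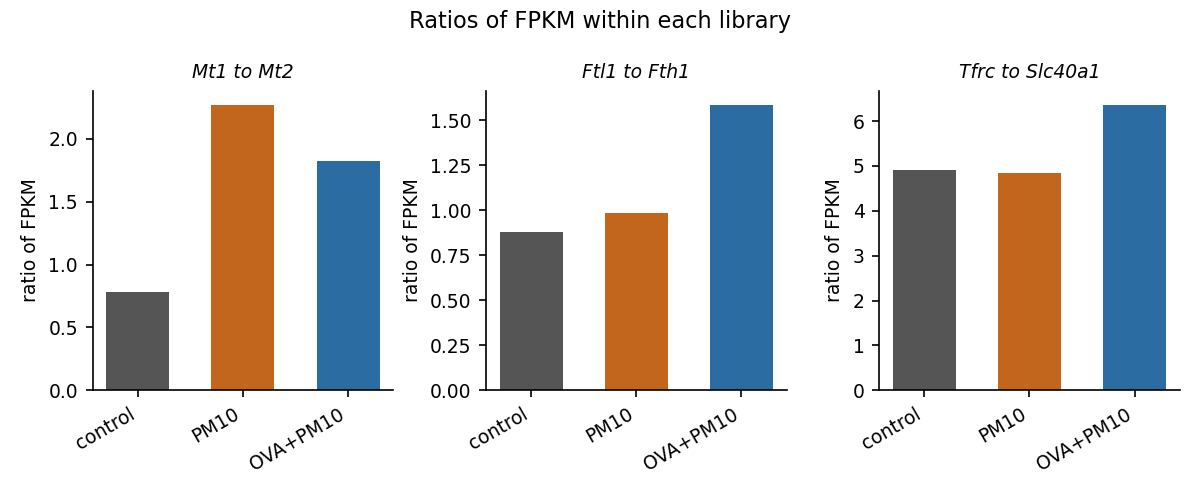
Ratio of FPKM of 2 genes within each library, for Mt1 to Mt2, Ftl1 to Fth1 and Tfrc to Slc40a1, 1 bar per library. The Mt1 to Mt2 ratio is 0.785 in control lung and above 1.8 in both exposed libraries, and the Ftl1 to Fth1 ratio is highest, at 1.59, in OVA+PM10 lung.

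As deposited, the cellular iron importer and exporter differed little between libraries. Tfrc, the transferrin receptor (chromosome 16, 32608920 to 32632794, 19 exons), had 17.2 FPKM in control lung, 20.1 FPKM in PM10 lung and 18.7 FPKM in OVA+PM10 lung. Slc40a1, ferroportin, the only known cellular iron exporter of mammals (chromosome 1, 45908068 to 45926523, 8 exons), had 3.51, 4.15 and 2.94 FPKM. All their log2 ratios as deposited lay between -0.39 and 0.21. With the length trend removed, the ratio of PM10 to control was 0.64 for Tfrc and 0.35 for Slc40a1. With equal summed FPKM it was -0.97 and -0.80. The ratio of Tfrc to Slc40a1 was 4.91, 4.83 and 6.36. The red cell marker list, which bears on Tfrc since red cell precursors express it strongly, was summed at 3589, 23410 and 7671 FPKM, mostly from globin Hba-a1. Of the listed genes that could be compared, 2 of 6 were higher and 1 lower than control in PM10 lung, beside 13.6% and 13.9% of all genes. In OVA+PM10 lung 4 of 7 were higher and 1 lower, beside 9.95% and 8.68%. Slc4a1, the anion exchanger of the red cell membrane, was at 11.1 FPKM in OVA+PM10 lung and at most 2.78 FPKM in the others. Hba-a1 and Hba-a2 were instead highest in PM10 lung (20709 and 2527 FPKM). Hbb-bs had 5.51 FPKM in control lung and was listed at 0 in both others. The part of red cells in the Tfrc values was not tested.

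Slc11a1 (NRAMP1, the pump that moves iron and manganese out of the phagosomes of macrophages and neutrophils) had the highest log2 ratio of the set. The gene (chromosome 1, 74375195 to 74386062, 15 exons) had 3.89 FPKM in control lung, 18.9 FPKM in PM10 lung and 11.6 FPKM in OVA+PM10 lung. The log2 ratio was 2.03 for PM10 and 1.37 for OVA+PM10 against control, or 1.86 and 1.23 with the length trend removed, and both kept their sign with equal summed FPKM (0.94 and 0.83). Since the samples are bulk tissue, more cells that express a gene and more RNA per cell cannot be told apart. Of all genes, 13.6% were higher and 13.9% lower than control in PM10 lung, and 9.95% and 8.68% in OVA+PM10 lung. Of 15 monocyte and recruited macrophage markers, 3 passed 2-fold as higher and 1 as lower in PM10 lung, 6 and 0 in OVA+PM10 lung. Their summed level was 3623, 5447 and 3957 FPKM, with none at 0. Cd68, the lysosomal marker of macrophages, had 38.6, 164 and 130 FPKM, in the same order of libraries as Slc11a1, as had Trem2 (3.05, 56.5 and 35.8 FPKM). Of 14 alveolar macrophage markers (1073, 2190 and 3612 FPKM summed, none at 0), 5 were higher and 1 lower in PM10 lung and 4 higher and 1 lower in OVA+PM10 lung. Neutrophil markers were summed at 1027, 972 and 3843 FPKM over 11 genes, with Elane at 0 in the control and PM10 libraries. Of the 9 that reached 1 FPKM, 1 was higher in PM10 lung and 6 in OVA+PM10 lung. The part of these cells in the Slc11a1 and ferritin values was not tested.

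**Figure D4:**
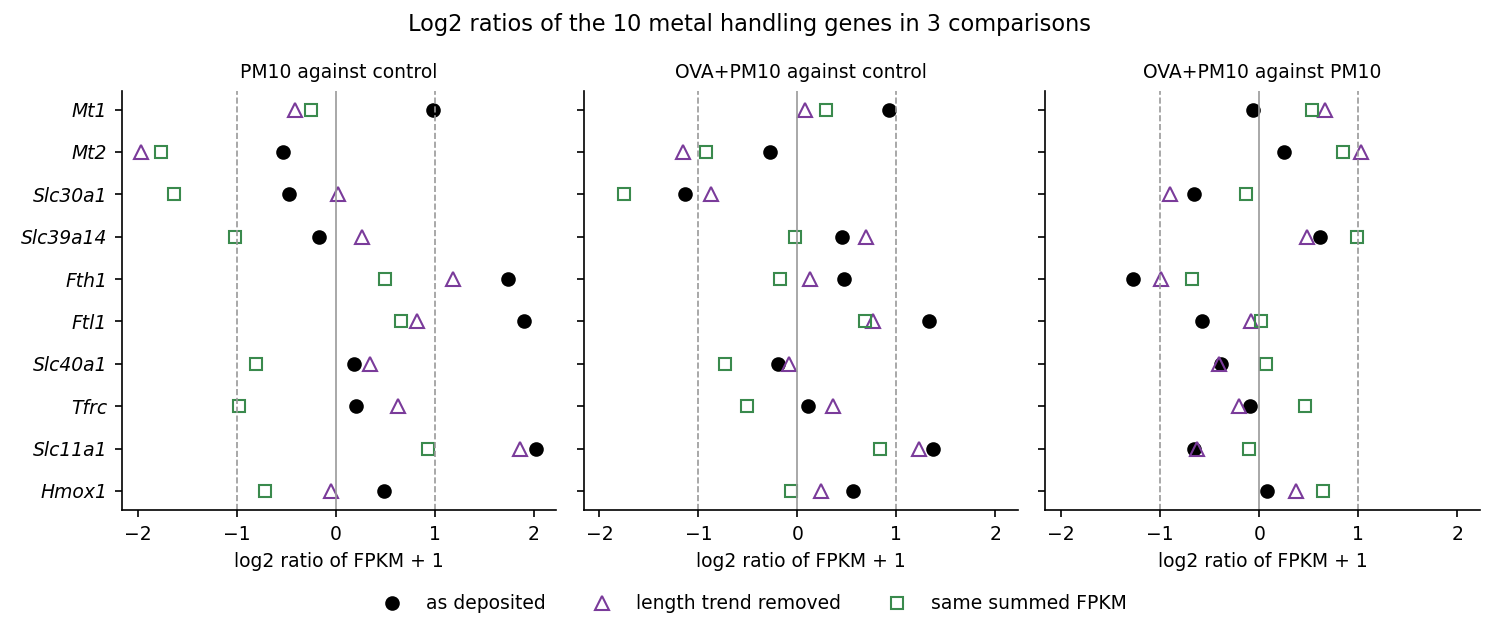
Log2 ratio of FPKM + 1 for the 10 genes in 3 comparisons, as deposited (circles), with the trend over transcript length removed (triangles) and with libraries scaled to the same summed FPKM (squares). Dashed lines mark 2-fold. Slc11a1 lies right of 0 on all 3 scales in both comparisons with control, whereas Mt1 in PM10 lung lies right of 0 only on the deposited one of these scales.

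Hmox1, the inducible haem oxygenase that releases iron from haem (chromosome 8, 75093621 to 75100589, 5 exons), was within 2-fold in all 3 comparisons. It had 22.0 FPKM in control lung, 31.1 FPKM in PM10 lung and 32.8 FPKM in OVA+PM10 lung, with log2 ratios to control of 0.49 and 0.56. With the length trend removed these were -0.05 and 0.24. The constitutive Hmox2 had 39.0, 48.0 and 60.1 FPKM. The enzymes of the next step, the biliverdin reductases, were at least 2-fold higher than control in PM10 lung (Blvra 47.6 against 18.0 FPKM, Blvrb 83.8 against 30.4 FPKM), and Blvrb also in OVA+PM10 lung (83.7 FPKM). These calls were lost with the length trend removed, at 0.49 for Blvra and 0.42 for Blvrb in PM10 lung and 0.93 for Blvrb in OVA+PM10 lung.

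Among 22 genes of haem synthesis, transport and breakdown, 18 could be compared in PM10 lung. Of these, 4 were higher and 2 lower, beside 13.6% and 13.9% of all genes. The median log2 ratio of the 18 was 0.43, beside 0.02 over all genes. With the length trend taken out none of those 4 passed 2-fold, while Fech, the last enzyme of haem synthesis, did (39.0 against 29.6 FPKM as deposited, 1.07 once corrected). Haptoglobin, Hp, which binds free haemoglobin, had 553, 1383 and 1185 FPKM. Its macrophage receptor Cd163 had 4.47 FPKM in the control and 3.88 FPKM in OVA+PM10 lung and was listed at 0 in PM10 lung. Spic, a transcription factor of iron-recycling macrophages, was near 1 FPKM or below except in OVA+PM10 lung (1.84 FPKM). In OVA+PM10 lung 3 of 19 were higher than control and 0 lower, beside 9.95% and 8.68% of all genes. Alas1, the first enzyme of haem synthesis outside red cells, had 139 FPKM there, against 72.0 and 55.0 FPKM in the control and PM10 libraries.

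Iron uptake and reduction genes went both ways. Of 16 that could be compared, 2 were higher (Slc11a1 and Lcn2) and 4 lower in PM10 lung, beside 13.6% and 13.9% of all genes. In OVA+PM10 lung 5 were higher and 1 lower than control, beside 9.95% and 8.68%. The siderophore-binding protein Lcn2 had 106, 808 and 679 FPKM. Lactoferrin, Ltf, an iron-binding protein of secretions and neutrophil granules, had 41.2 FPKM in control lung, 9.86 FPKM in PM10 lung and 112 FPKM in OVA+PM10 lung. Scara5, a receptor for ferritin, had 9.30, 0.208 and 3.68 FPKM, the same order as the adipose markers (324, 8.70 and 115 FPKM summed over 7, with Plin1 at 0 in PM10 lung and Lep at 0 in both exposed libraries). Whether Scara5 and the adipose markers are linked was not tested. Steap1, a metalloreductase, had 0.689, 1.69 and 3.46 FPKM, and Steap3, the endosomal ferrireductase, 14.5, 4.05 and 9.83 FPKM. Ceruloplasmin, Cp, which oxidises iron on its way out of cells, was the other gene of the storage and export list past 2-fold, with 207 FPKM in OVA+PM10 lung against 51.2 and 49.8 FPKM in the control and PM10 libraries (log2 ratio to control 2.00).

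Of the genes of iron sensing and of the hepcidin pathway, those past 2-fold against control were lower. Of 10 that could be compared with control, 2 passed 2-fold as lower in PM10 lung and 4 in OVA+PM10 lung, beside 13.9% and 8.68% of all genes, and 0 as higher, with medians of -0.48 and -0.53. Both genes called in PM10 lung, Bmp6 and Hfe2, were also called in OVA+PM10 lung; corrected for transcript length, Bmp6 was at -0.99 in PM10 lung and Hamp, the hepcidin gene, at -2.09. Bmp6, the endothelial signal that induces hepcidin in liver, had 47.4 FPKM in control lung, 20.5 FPKM in PM10 lung and 13.1 FPKM in OVA+PM10 lung. Smad6 and Smad7, inhibitors that the same pathway induces, had 46.3 and 26.6 FPKM in control lung and 17.8 and 10.9 FPKM in OVA+PM10 lung. Hepcidin itself, Hamp, was above control in OVA+PM10 lung as deposited, with 7.61, 4.67 and 16.0 FPKM (log2 ratio to control 0.98). With the length trend removed that ratio was only 0.09. Hfe was also above control there (16.9, 25.1 and 27.9 FPKM, 0.69, or 0.79 with the trend removed). Both genes were within 2-fold in OVA+PM10 lung. Hfe2 (hemojuvelin, a co-receptor made by liver and skeletal muscle) had 8.09, 0.487 and 0.065 FPKM, which runs beside the skeletal muscle markers given above; the part of that tissue was not tested. The iron regulatory proteins Aco1 (15.3, 13.5 and 20.2 FPKM) and Ireb2 (9.96, 7.60 and 8.58 FPKM) stayed within 2-fold.

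**Figure D5:**
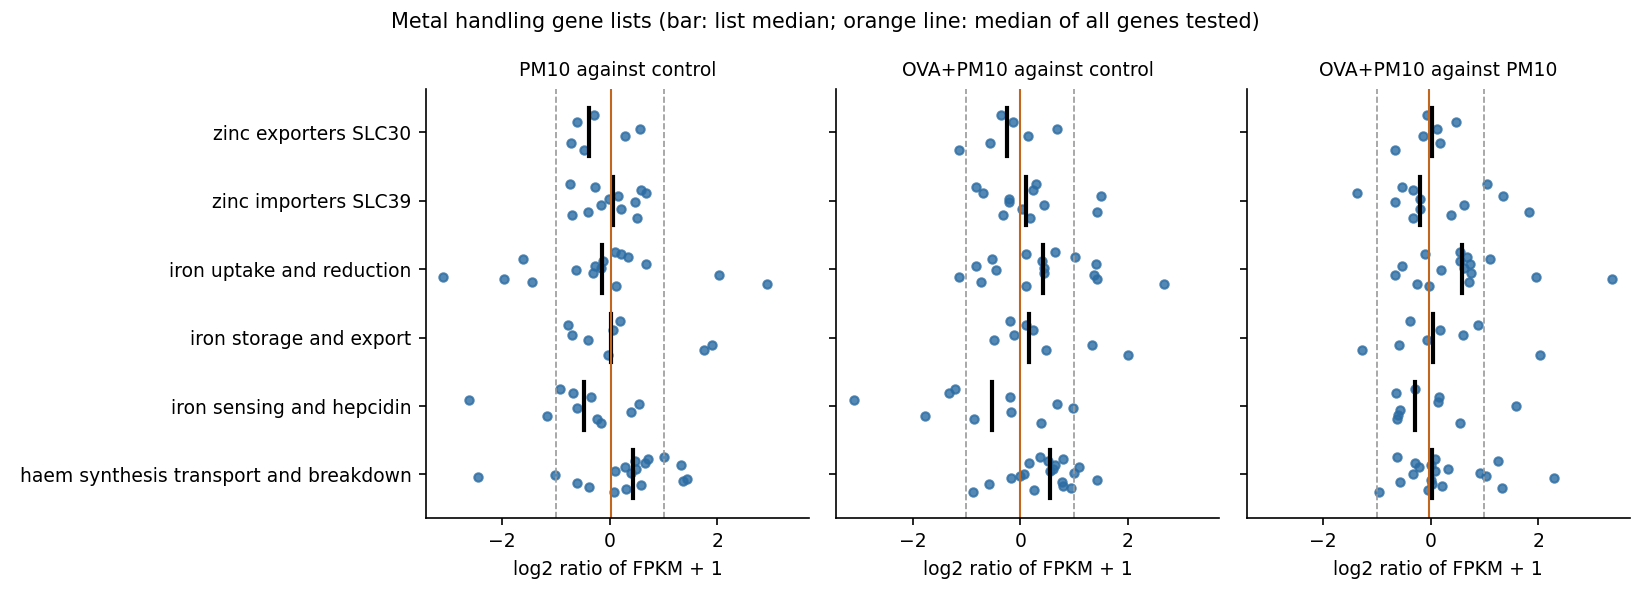
Log2 ratio of FPKM + 1 for genes of 6 metal handling lists with at least 1 FPKM in a compared library, 1 point per gene, in 3 comparisons, with the list median (black bar), the median of all genes (orange line) and 2-fold (dashed). Genes of each list lie on both sides of 0, and the iron sensing list has its median at -0.48 and -0.53 against control.

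For 4 of the genes, log2(FPKM + 1) spanned at least 1 over the libraries, and the 3 genes with the nearest profile were sought among 10027. Likeness was the Euclidean distance between profiles centred on their mean over 3 libraries, which so few points can bring near 0 for many genes: 189, 176, 102 and 100 genes lay within 0.25 of Slc30a1, Fth1, Ftl1 and Slc11a1. Nearest to Slc30a1 was Pecam1, the endothelial adhesion molecule (308, 221 and 139 FPKM, distance 0.0020), then Papss2 and Otud7b. Chchd2, Trappc4 and Vamp8 were nearest to Fth1, and Scand1, Rpsa and Ckb to Ftl1. The 3 genes nearest to Slc11a1 included the globin gene Hbb-b2 and the ribosomal protein gene Rpsa.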

How the data were processed

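RNA from lung homogenates was sequenced in 3 libraries, 1 per group, assigned by title. The authors deposited FPKM values for 23183 genes in each file; this unit follows from the values, as no header gives it. TopHat and the build mm10 were used, per the submitters' processing notes; the sources used here do not give the counting program, annotation, use of strand or handling of multiply matching reads. Per the labels' protocols, 1.3 µg of RNA went into each library, made with a directional kit. Ratios are log2 of FPKM + 1, which understates changes of low genes, restricted to genes reaching 1 FPKM in either compared library, and calls are at 2-fold. No test was possible with 1 library per group. Gene positions and the length of each principal transcript were taken from GENCODE M21 (GRCm38), with a symbol match for 22156 genes (95.6%), and the length trend was a running median over 501 genes. The value of 1 read was estimated from genes with 1 transcript. Named genes were the 10 members, up to 4 genes per list (6 for the importer, uptake and haem lists) with the largest ratios, and the 3 genes most like a member; Smad7, Hfe, Fech, Hmox2, Aco1, Ireb2, Slc4a1, Elane, Krt5, Krt14, Krt6a, Plin1, Lep and the NRF2 genes Gclm and Nqo1 fell outside the rule and were picked with their values known, and a few genes that the rule names are not reported here. The genes and lists were chosen with earlier results of these data known. Code was tested on simulated data and run in Python 3.11.15 with pandas 2.3.3.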

Additional observations from a re-analysis of the deposited data

How the results depend on the processing

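No paired analysis was possible because each group has 1 library, and for the same reason no library could be left out. Of the 30 log2 ratios of the 10 genes, 16 kept their sign under all 7 alternatives that give a ratio: Mt2, Slc11a1 and, in part of the comparisons, Fth1, Ftl1, Mt1, Slc30a1, Slc39a14, Hmox1 and Slc40a1. No gene past 2-fold changed sign under any of them. Genes at least 2-fold higher with PM10 numbered 3, against 1 at 4-fold and 0 with equal summed FPKM; genes lower numbered 0, against 3 with equal sums, 2 with sums equalised without globin, muscle, squamous, ribosomal and structural RNA genes, and 1 with the length trend removed (also with the longest transcript, an alternative chosen after seeing the data). For OVA+PM10 against control, genes higher numbered 2, against 1 with a pseudocount of 5 FPKM, 0 at 4-fold, 0 with either equal sum and 1 with either length correction, and genes lower numbered 1, against 0 with that pseudocount or at 4-fold. For OVA+PM10 against PM10, genes higher numbered 0, against 1 at 1.5-fold and 1 with the length trend removed, and genes lower numbered 1, against 3 at 1.5-fold and 0 at 4-fold, with either equal sum or with the length trend removed. The equal sums move every ratio by construction. A pseudocount of 0.25, no filter, a filter at 5 FPKM and scaling by the median ratio moved none of these counts by over 1.5 times. Depth limits Slc39a14 and Slc40a1, at about 116 to 244 reads, and Slc11a1 in control lung, at about 177 reads.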

Other observations

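Genes of mitochondrial iron and of copper handling were also fixed as lists. Of 12 genes of mitochondrial iron and iron-sulfur cluster assembly, 6 passed 2-fold as higher and 0 as lower in PM10 lung. Of all genes, 13.6% and 13.9% did. The median log2 ratio of the 12 was 0.95, beside 0.02 over all genes. In OVA+PM10 lung 1 was higher than control, beside 9.95% of all genes (median 0.18). The scaffold protein gene Iscu had 109, 270 and 125 FPKM for control, PM10 and OVA+PM10, and the glutaredoxin Glrx5 44.4, 132 and 74.6 FPKM. With the length trend removed 2 of the 12 were higher in PM10 lung, Glrx5 among them (1.51) but not Iscu (0.21), and the median was 0.28. Of 9 copper genes, 4 were higher and 2 lower in PM10 lung, beside 13.6% and 13.9% of all genes. Higher were, among others, the small chaperones Atox1 (152, 508 and 343 FPKM) and Cox17 (163, 839 and 281 FPKM). The membrane pumps Atp7a (11.5, 3.53 and 5.44 FPKM) and Atp7b (5.95, 0.467 and 5.06 FPKM) were lower. Corrected for transcript length, Atox1 no longer passed 2-fold (0.32), whereas Atp7a and Atp7b did as lower (-1.04 and -1.56). Cox17 was at 2.48, against 2.35 as deposited. The trend at the length used for Cox17 was thus slightly negative, as for transcripts of 3362 to 3988 bases (median -0.16). Whether a shorter Cox17 transcript prevailed was not tested, so its corrected value depends on the transcript chosen.

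Of 13 genes controlled by NRF2, a factor that also induces Hmox1 and the ferritin chains, 3 passed 2-fold as higher in PM10 lung (Fth1, Ftl1 and the cystine transporter Slc7a11) and 2 in OVA+PM10 lung (Ftl1 and the glutathione reductase Gsr), with 0 lower in either, beside 13.6% and 9.95% of all genes higher. Corrected for transcript length, 2 stayed past 2-fold in PM10 lung (Ftl1 fell to 0.82) and Nqo1 was past it as lower (-1.33), beside 6.57% and 11.2% of all genes. In OVA+PM10 lung 3 were then higher (Gsr 1.49, Slc7a11 1.35 and Gclc 1.00) and 0 lower, beside 7.33% and 8.36%. With equal summed FPKM 0 were higher and 8 lower in PM10 lung, beside 1.76% and 51.2%. In OVA+PM10 lung these counts were 0 and 1, beside 4.3% and 24.1%. Gsr had 19.7, 16.3 and 58.3 FPKM, and Gclc, the catalytic subunit of glutathione synthesis, 19.7, 18.0 and 37.5 FPKM, while its partner Gclm had 19.7, 19.5 and 25.2 FPKM. Nqo1 had 8.08, 4.25 and 5.39 FPKM.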
